A study of Homo sapiens with 20 samples.

Results

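siRNAs against APC and TAZ were combined (siAPC/siTAZ) in MII, a line of human mammary epithelial cells transformed by RAS and also named MCF10-T1k. They were set against MII cells that received siRNA against GFP (siGFP), which served as the control. The rule took 8 of the 20 arrays by their titles, 4 siAPC/siTAZ and 4 siGFP, and all 19752 genes with a probe set of their own were compared. The other groups, also of 4 arrays each, received siRNA against APC alone (siAPC), against beta-catenin (sibcat), or against beta-catenin and TAZ (sibcat/siTAZ). All groups shared the RAS transformation, the lipid transfection with siRNA and a medium supplemented with horse serum, insulin, EGF, hydrocortisone and cholera toxin. The sources used here give no siRNA sequences, doses or time to harvest, all cells come from 1 line, and TAZ siRNA on its own was not analysed here. The replicates are called biological without word of separate cultures, so each p-value reflects no more than the spread of these arrays, which may be technical.

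APC is a scaffold of the cytoplasmic complex that sends beta-catenin (gene CTNNB1) to the proteasome. When the complex fails, beta-catenin accumulates, enters the nucleus and drives transcription with TCF and LEF factors, and several of its targets, such as AXIN2 and NKD1, feed back on the pathway as inhibitors. TAZ (gene WWTR1) and its paralog YAP (gene YAP1) are coactivators that the Hippo kinases keep out of the nucleus and that act on chromatin mostly with TEAD factors, with CCN1, CCN2 and ANKRD1 as their best known targets. The destruction complex is known to hold back TAZ as well as beta-catenin, so the combined depletion asks what remains of the response to APC loss when TAZ is removed with it.

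The promoters of CCN2, ANKRD1 and ALDOC are shown because their genes belong to the TEAD target and hypoxia lists described below. Each is the run of 250 bases before the RefSeq start of the gene on GRCh38.p14, given 5′ to 3′ on the gene's own strand. Capitals in CCN2 (chr6:131951373-131951622, minus strand) and ANKRD1 (chr10:90921088-90921337, minus strand) mark the TEAD letters GGAATG. Capitals in ALDOC (chr17:28576896-28577145, minus strand) mark the hypoxia response letters ACGTG or their complement, a motif added after the values were seen.
CCN2: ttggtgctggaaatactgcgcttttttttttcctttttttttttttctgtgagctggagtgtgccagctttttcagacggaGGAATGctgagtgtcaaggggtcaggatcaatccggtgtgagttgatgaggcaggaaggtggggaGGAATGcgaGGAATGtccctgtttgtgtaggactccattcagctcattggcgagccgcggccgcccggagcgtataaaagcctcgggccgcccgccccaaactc
ANKRD1: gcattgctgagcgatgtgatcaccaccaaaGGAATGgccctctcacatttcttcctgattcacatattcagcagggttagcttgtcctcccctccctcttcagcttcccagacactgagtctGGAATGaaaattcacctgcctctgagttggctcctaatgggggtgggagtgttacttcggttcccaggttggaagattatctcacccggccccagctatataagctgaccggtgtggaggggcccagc
ALDOC: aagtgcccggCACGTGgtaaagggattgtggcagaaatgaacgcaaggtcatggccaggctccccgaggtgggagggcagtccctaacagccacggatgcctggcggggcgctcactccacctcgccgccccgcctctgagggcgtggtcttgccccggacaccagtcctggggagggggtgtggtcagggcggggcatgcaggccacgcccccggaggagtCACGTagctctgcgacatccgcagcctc

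CCN2 holds GGAATG 3 times and ANKRD1 2 times, the nearest to the start at 95 to 90 bases before it in CCN2 and at 128 to 123 bases before it in ANKRD1. In ALDOC, which encodes the glycolytic aldolase C, 2 of the 3 matches overlap as one palindrome, 240 to 235 bases before the start. Searched on both strands, GGAATG occurred in 11.9% of 27305 RefSeq windows of this length and in 6 of the 16 windows found for the YAP/TAZ-TEAD list (37.5%). ACGTG occurred in 18.7% of all windows and in 11 of the 20 found for the hypoxia and glycolysis list (55%). The TCF letters CTTTGA or CTTTGT occurred in 22.9% of all windows and in 3 of the 18 found for the Wnt target list (16.7%). Over the 15390 windows of genes tested, the shares were 10.3% for GGAATG, 21.2% for ACGTG and 19.1% for the TCF letters. In 443 windows of genes at least 2-fold higher in siAPC/siTAZ cells they were 9.0%, 17.6% and 27.1%, and in 415 windows of genes at least 2-fold lower 11.1%, 23.4% and 19.3%. These matches describe the letters of the window and do not show that a factor binds there.

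The arrays were Affymetrix HG-U133 Plus 2.0, and values are log2 RMA signals, so a difference of 1 is 2-fold. Array medians lay between 5.07 and 5.11, the lowest correlation of arrays within a group was 0.9964, and no array stood apart. Precision is limited by 4 arrays a group, and the median residual SD per gene was 0.108. The epithelial defining markers KRT5, KRT8, KRT14, KRT18, EPCAM, CDH1 and SFN all lay above the array medians in both groups. Their summed linear signal was 30602 to 31862 in siGFP and 23349 to 24247 in siAPC/siTAZ arrays, with 6 of 7 lower. The 7 fibroblast markers summed to 5822 to 6320 against 9080 to 9349, 4 of them higher, and LUM and PDGFRA lay below the array medians in both groups. The 5 leukocyte markers summed to 330 to 348 against 143 to 148, with PTPRC at 2.67 and 2.68, and the 7 endothelial markers to 206 to 242 against 154 to 166. The 3' minus 5' signal of ACTB, a sign of RNA quality, was 1.83 ± 0.06 in siGFP and 1.99 ± 0.08 in siAPC/siTAZ (SD, n = 4, two-sided exact permutation p = 0.0571). That of GAPDH was 0.09 ± 0.01 and 0.16 ± 0.01 (exact permutation p = 0.0286, the lowest value possible with 4 arrays a group), and the part of this gap in the results below was not tested.

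Both siRNA targets were low in siAPC/siTAZ cells. WWTR1 read 10.92 (replicate D) to 11.20 (replicate A) in the siGFP arrays and 7.91 (replicate A) to 8.02 (replicate C) in the siAPC/siTAZ arrays. The groups were far apart, and WWTR1 fell by 3.08 ± 0.05 (log2, SE), or 8.44-fold (limma adjusted p = 3.99e-19), with all 3 probe sets lower. APC read 8.25, 8.29, 8.21 and 8.15 against 6.85, 6.94, 6.78 and 6.99. It fell 2.52-fold (adjusted p = 4.44e-14), and 3 of its 5 probe sets were called lower and none higher. CTNNB1 mRNA, which neither siRNA targets, was higher, at 11.94 ± 0.06 in siGFP and 12.26 ± 0.09 in siAPC/siTAZ (SD, n = 4, difference 0.32 ± 0.05, adjusted p = 1.29e-05). Another of its 3 probe sets was called higher by 1.03 ± 0.06, and the third was not called (0.24 ± 0.10). YAP1 was not targeted either and fell 2.51-fold, from 10.95 ± 0.07 to 9.62 ± 0.07 (adjusted p = 4.76e-15). YAP1 stood at 10.36 in siAPC and at 10.14 in sibcat/siTAZ cells, and it was lower in siAPC/siTAZ than in either (adjusted p = 4.23e-11 and 6.02e-09).

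The reporters of the pathways parted in the combined depletion. Those of beta-catenin (AXIN2, LEF1 and NKD1) were high, and those of TEAD (CCN1, CCN2 and ANKRD1) were at or below their control level. AXIN2, the scaffold of the destruction complex that beta-catenin itself induces, read 4.90, 4.62, 4.86 and 4.79 in siGFP arrays and 10.99, 10.87, 10.92 and 11.06 in siAPC/siTAZ arrays. Every siAPC/siTAZ array lay above every siGFP array, a rise of 6.17 ± 0.08 or 71.9-fold (adjusted p = 3.09e-21). The other AXIN2 probe sets were called higher too, but by only 1.51, 0.52 and 0.48. LEF1, a TCF family factor that binds beta-catenin, read 6.44 to 6.53 against 10.67 to 10.74 (18.3-fold, adjusted p = 1.07e-21). NKD1, a Dishevelled antagonist, rose 2.41-fold, from 4.57 to 4.86 in siGFP to 5.95 to 6.09 in siAPC/siTAZ arrays (adjusted p = 1.51e-08). The other LEF1 probe sets rose by 1.87 and 0.25. For NKD1 a further probe set rose by 2.77 and another was not called (0.08). These reporters stood higher than with APC siRNA alone, by 0.86 ± 0.08 for AXIN2, 1.23 ± 0.05 for LEF1 and 0.61 ± 0.12 for NKD1 (adjusted p = 1.26e-08, 6.31e-14 and 0.0002). APC mRNA was also lower than with APC siRNA alone, at 6.89 against 7.35 (difference -0.46 ± 0.05, adjusted p = 5.13e-07), and its part in these differences was not tested.

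CCN2, a secreted matricellular protein, read 7.88, 7.79, 7.81 and 7.57 in siGFP arrays and 3.77, 4.23, 4.38 and 4.70 in siAPC/siTAZ arrays. It fell by 3.49 ± 0.17 (adjusted p = 9.57e-13), to a level below the array medians. CCN1, its relative, read 8.68 to 8.72 in siGFP and 8.10 to 8.25 in siAPC/siTAZ arrays. The groups did not overlap, but the fall was only 1.44-fold (adjusted p = 5.16e-07). ANKRD1, a nuclear ankyrin repeat protein, read 2.85, 3.25, 3.26 and 2.96 against 2.80, 3.15, 3.20 and 3.20. Its groups overlapped at a signal near background, with a difference of 0.01 ± 0.10 (adjusted p = 0.964). In siAPC cells CCN2 stood at 11.03, CCN1 at 12.07 and ANKRD1 at 8.73, above their siGFP means of 7.76, 8.71 and 3.08. In sibcat/siTAZ cells, where TAZ was also depleted, CCN2 stood at 3.21 and CCN1 at 6.71. Both were lower there than in siAPC/siTAZ cells (adjusted p = 2.47e-05 and 1.18e-13), while ANKRD1 at 3.02 differed by 0.07 (adjusted p = 0.618).

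**Figure D1:**
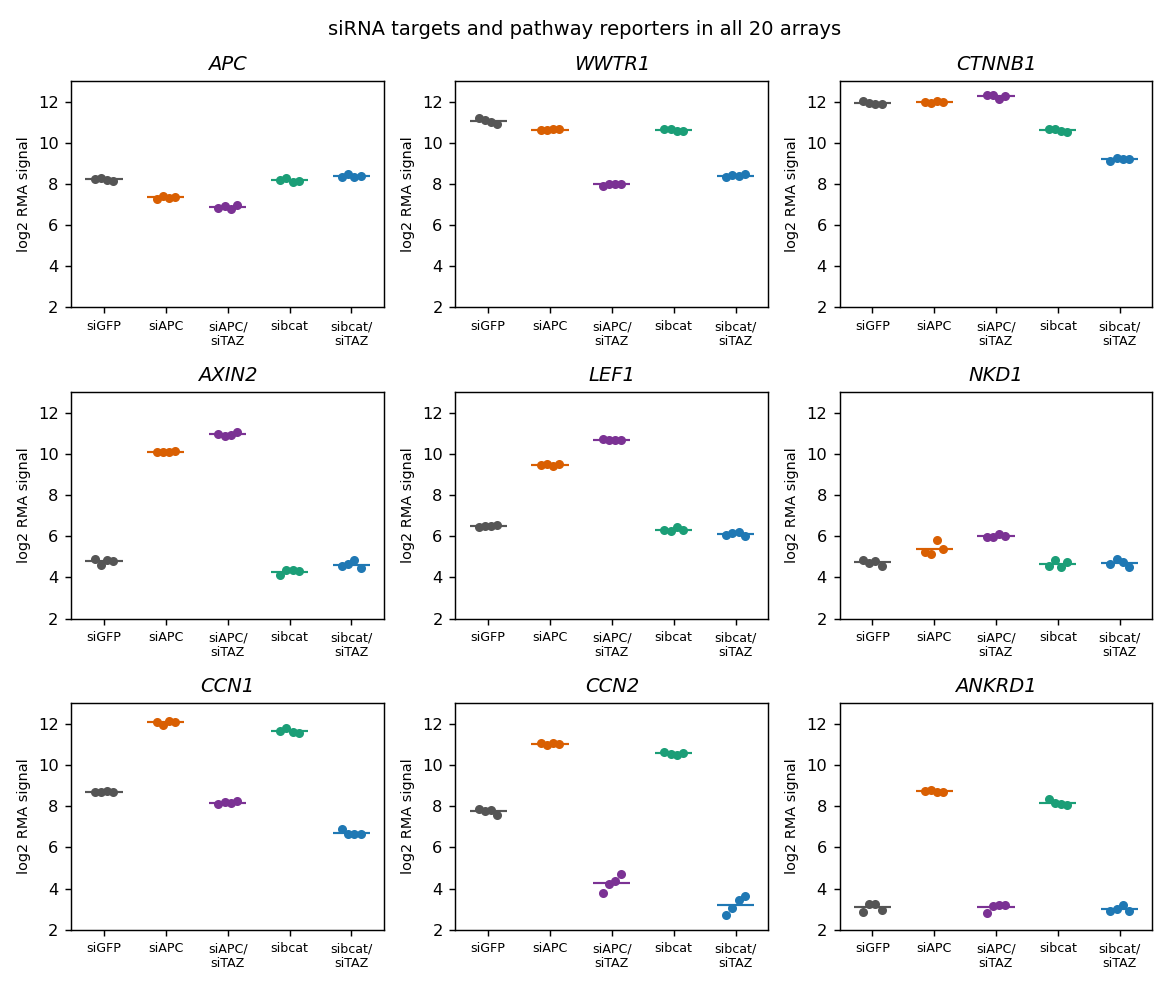
Log2 RMA signal of the siRNA targets, CTNNB1 and the pathway reporters in each of the 4 arrays of every group, 1 panel per gene. AXIN2 is high in the siAPC arrays (mean 10.10) and highest in the siAPC/siTAZ arrays (mean 10.96), while CCN2 is high in siAPC (mean 11.03) and low in siAPC/siTAZ (mean 4.27).

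Over all genes, 9330 of 19752 (47.2%) differed between siAPC/siTAZ and siGFP cells at an adjusted p under 0.05, which is what "called" means here. Of these, 4539 were higher (23%) and 4791 lower (24.3%), and the smallest called difference was 0.08. Changes of at least 2-fold were called for 5.61% of genes, 553 higher (2.8%) and 556 lower (2.81%). The groups of arrays did not overlap for 8727 genes (44.2%). Because nearly every second gene was called, the size of a change says more here than the call, and each list below is read against these shares and a median difference of -0.04 over all genes.

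The list of Wnt feedback genes and beta-catenin/TCF targets had 17 of 30 measured members higher, 3 lower and 10 not called, with a median difference of 0.40. Higher members made up 56.7% of the list, against 23% of all genes, and 13 members were at least 2-fold higher against 2.8% of all genes. Among the receptors and feedback regulators, the orphan TNF receptor TNFRSF19 read 5.33 to 5.66 in siGFP and 8.73 to 8.96 in siAPC/siTAZ arrays (10.6-fold, adjusted p = 1.93e-16). The R-spondin receptor LGR6 rose by 2.77, the Wnt inhibitor APCDD1 by 2.24 and the receptor FZD7 by 1.39. The membrane E3 ligases ZNRF3 and RNF43, which remove Frizzled receptors, rose by 1.23 and 1.09. Transcription factor targets in the list rose as well, with the homeobox gene MSX2 at 2.89, the zinc-finger factor SP5 at 2.03 and ID2, an inhibitor of helix-loop-helix factors, at 0.93. ID2 had gone the other way with APC siRNA alone, at 8.39 against 9.19 in siGFP and 10.11 in siAPC/siTAZ.

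Several of the best known members did not follow. DKK1, a secreted antagonist of the LRP co-receptors, read 11.84 to 11.93 in siGFP and 10.23 to 10.33 in siAPC/siTAZ arrays, a fall of 1.61 ± 0.04 (adjusted p = 3.44e-17). It stood at 12.58 in siAPC and at 10.22 in sibcat/siTAZ, and the siAPC/siTAZ and sibcat/siTAZ means differed by 0.06 (adjusted p = 0.265). Cyclin D1 (CCND1) fell by 0.33 and SOX9 by 0.26, and MYC rose by only 0.17. CD44 (-0.01), LGR5 (-0.17), ASCL2 (-0.01) and NOTUM (-0.10) were not called, and LGR5 and ASCL2 lay below the array medians in siGFP cells. DKK2, a relative of DKK1 that was no member of the list, showed the largest rise of all genes. It read 2.61, 2.65, 2.74 and 2.62 against 8.90, 9.11, 9.01 and 9.15 (83.7-fold, adjusted p = 3.07e-22), although its other probe set was called in the opposite direction, by -0.33.

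The receptors and the destruction complex moved in both directions. Of 24 measured, 10 were higher (41.7%, against 23% of all genes), 6 lower (25%, against 24.3%) and 8 not called, with a median of 0.01. The scaffold DVL3 rose by 1.22, the kinase CSNK1D by 0.74 and the co-receptor LRP6 by 0.55, while the receptor FZD5 fell by 1.49. For CSNK1D, the mean over all probe sets of the gene was lower, at -0.13 (adjusted p = 0.0377), so its direction rests on the choice of probe set.

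YAP/TAZ-TEAD targets were mostly lower than in the control. Of 21 measured, 11 were lower (52.4%, against 24.3% of all genes), 6 higher and 4 not called, with a median of -0.16. The same genes had a median of 1.11 in siAPC against siGFP, with 18 higher (21.3% of all genes were). Set directly against siAPC cells, siAPC/siTAZ cells had 19 of the 21 lower and none higher, with a median of -1.29, where 22.8% of all genes were lower. These comparisons share arrays, so their values stand side by side and do not support each other.

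Apart from CCN2, the lower TEAD targets included F3 (tissue factor, the starter of coagulation), which read 12.06 to 12.16 in siGFP and 10.11 to 10.17 in siAPC/siTAZ arrays (3.94-fold lower, adjusted p = 1.13e-15). MYOF, a membrane repair protein, fell by 1.58 ± 0.04, the angiomotin-like scaffold AMOTL2 by 1.28 ± 0.05 and CRIM1 by 1.11 ± 0.04. The receptor kinase AXL fell by 0.76. Thus some TEAD targets were below control while others had only come back to it. IGFBP3, an IGF binding protein, read 10.92 ± 0.10 in siGFP, 13.33 in siAPC and 10.86 ± 0.02 in siAPC/siTAZ, a difference from the control of -0.06 ± 0.05 that was not called (adjusted p = 0.384). The members still above control were the Arf GTPase-activating protein ASAP1 (0.60), the Hippo kinase LATS2 (0.52), CCDC80 (0.32), the stress gene GADD45A (0.30), TGFB2 (0.22) and FOXF2 (0.12). For CCDC80 the mean over all probe sets was not called (0.08, adjusted p = 0.0834), and FOXF2 lost its call without replicate A or C of siAPC/siTAZ or replicate B of siGFP (adjusted p up to 0.0645).

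**Figure D2:**
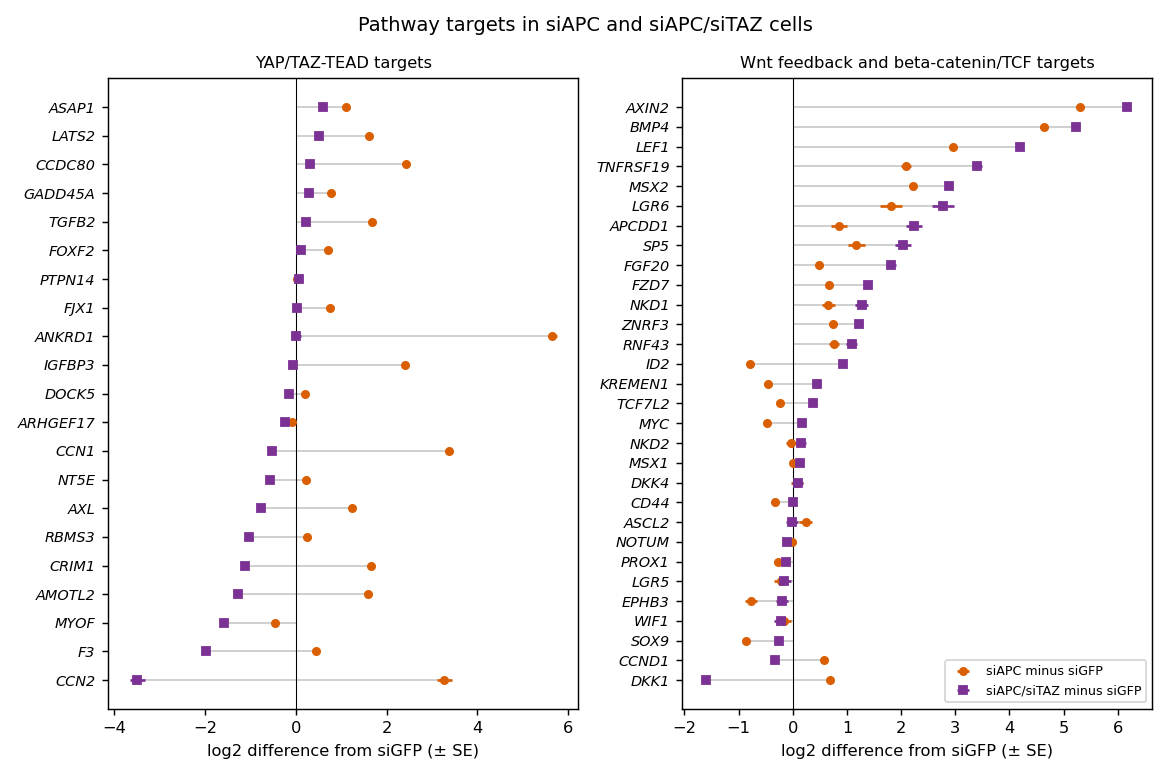
Difference from siGFP in log2 signal for each YAP/TAZ-TEAD target (left) and each Wnt target (right), with siAPC as circles and siAPC/siTAZ as squares and bars of 1 SE. On the left the squares of 19 of 21 genes lie left of their circles at an adjusted p under 0.05, as for ANKRD1 (0.01 in siAPC/siTAZ), and on the right the squares of AXIN2, BMP4, LEF1 and TNFRSF19 lie beyond their circles.

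The remaining Hippo genes went both ways, with 11 of 23 higher (47.8%, against 23% of all genes), 7 lower (30.4%, against 24.3%) and 5 not called. The DNA partner TEAD2 rose by 1.11, the TEAD cofactor VGLL4 by 0.99, the kinase MAP4K4 by 1.07 and the FERM protein FRMD6 by 0.86. TEAD1 rose by 0.46 and TEAD4 fell by 0.27. The LIM protein AJUBA, an inhibitor of LATS kinases, fell by 0.84, and the cofactor VGLL3 fell by 0.47.

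The 15 largest rises among called genes without overlap ran from 83.7-fold for DKK2 to 13.1-fold for ITGA1. After DKK2 and AXIN2, TDO2, the tryptophan dioxygenase, read 2.68 to 3.12 in siGFP and 9.06 to 9.12 in siAPC/siTAZ arrays (71.3-fold). HAS2, the hyaluronan synthase, read 4.69 to 5.28 against 10.72 to 10.89 (53.9-fold), and the ligand BMP4 5.43 to 5.79 against 10.82 to 11.02 (37.6-fold). That the groups stay apart in these genes follows from how the genes were chosen. The insulin growth factor-like gene IGFL2 rose 24.3-fold, the fibrillar collagen COL3A1 21.3-fold, the gap junction gene GJA1 19.5-fold and LEF1 18.3-fold. OLR1, a scavenger receptor, rose 14.9-fold, the cadherin CDH11 14.5-fold, PLCXD2 14.4-fold, the dynamin DNM3 13.5-fold, CCDST 13.2-fold and the collagen-binding integrin ITGA1 13.1-fold. Their adjusted p-values lay between 3.07e-22 and 1.97e-14. TDO2, COL3A1, CCDST and PLCXD2 each also had a probe set that was not called, at -0.035, 0.1, -0.018 and 0.128.

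The paths to these levels differed between genes. BMP4 stood at 10.29 in siAPC, GJA1 at 9.79 and HAS2 at 9.53, so most of each rise was present with APC siRNA alone. COL3A1, by contrast, stood at 5.08 in siAPC, at 8.16 in sibcat/siTAZ and at 9.86 in siAPC/siTAZ, against 5.45 in siGFP. OLR1 stood at 8.86 in siAPC and was lower in siAPC/siTAZ, at 7.58, though well above its siGFP mean of 3.68. TDO2 stood at 7.30 in siAPC and at 5.49 in sibcat/siTAZ, both below its siAPC/siTAZ mean of 9.10 (adjusted p = 4.24e-14 and 1.35e-18).

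The 15 largest falls ran from 26.8-fold for SCGB1A1 to 8.2-fold for SERPINB3. SCGB1A1, a secretoglobin, read 7.80, 7.85, 7.91 and 7.86 in siGFP arrays and 2.91, 3.03, 3.18 and 3.32 in siAPC/siTAZ arrays (26.8-fold lower, adjusted p = 2.63e-17). DEPP1, a target of FOXO factors, read 8.98 to 9.28 against 4.26 to 5.40 (19.0-fold lower), and the surface antigen PSCA 9.05 to 9.22 against 4.84 to 5.15 (16.8-fold lower). SCGB1A1 stood at 2.99 in siAPC cells, a difference of 0.12 from siAPC/siTAZ cells that was not called (adjusted p = 0.432), whereas DEPP1 stood at 7.66 there. EGLN3, the HIF prolyl hydroxylase, was 12.7-fold lower, SERPINA3, an acute-phase serpin, 9.9-fold and ART3 9.78-fold. CCNA1, the cyclin A of the germ line, was 9.13-fold lower, the siderophore binder LCN2 8.98-fold and the prostaglandin synthase PTGS1 8.51-fold. The GABA receptor subunit GABRP was 8.44-fold lower, like WWTR1, and SERPINB4 and SERPINB3 were 9.02-fold and 8.2-fold lower, a near-identical pair whose probe sets may each read both genes.

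TIMP2, an inhibitor of matrix metalloproteinases, was also among the largest falls. It read 10.84, 10.87, 10.89 and 10.89 in siGFP and 7.76, 7.83, 7.78 and 7.88 in siAPC/siTAZ arrays, 8.34-fold lower (adjusted p = 5.39e-21), with all 3 probe sets lower. Its mean was 11.16 in siAPC, 11.39 in sibcat and 11.27 in sibcat/siTAZ, each above the siGFP mean, and in siAPC/siTAZ cells it was 3.35 ± 0.04 below siAPC and 3.46 ± 0.04 below sibcat/siTAZ (adjusted p = 1.56e-21 and 1.16e-21). For a difference seen in this group and in no other, an effect of the siRNA mixture and one of losing both genes cannot be told apart. Where a group's signal lies below the array medians, background compresses a fold. Among the 30 genes this concerns the siGFP signals of DKK2, AXIN2, TDO2, OLR1, DNM3, CCDST and ITGA1 and the siAPC/siTAZ signals of SCGB1A1, DEPP1, PSCA, CCN2, ART3, CCNA1 and SERPINB4, whose rank is therefore uncertain.

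**Figure D3:**
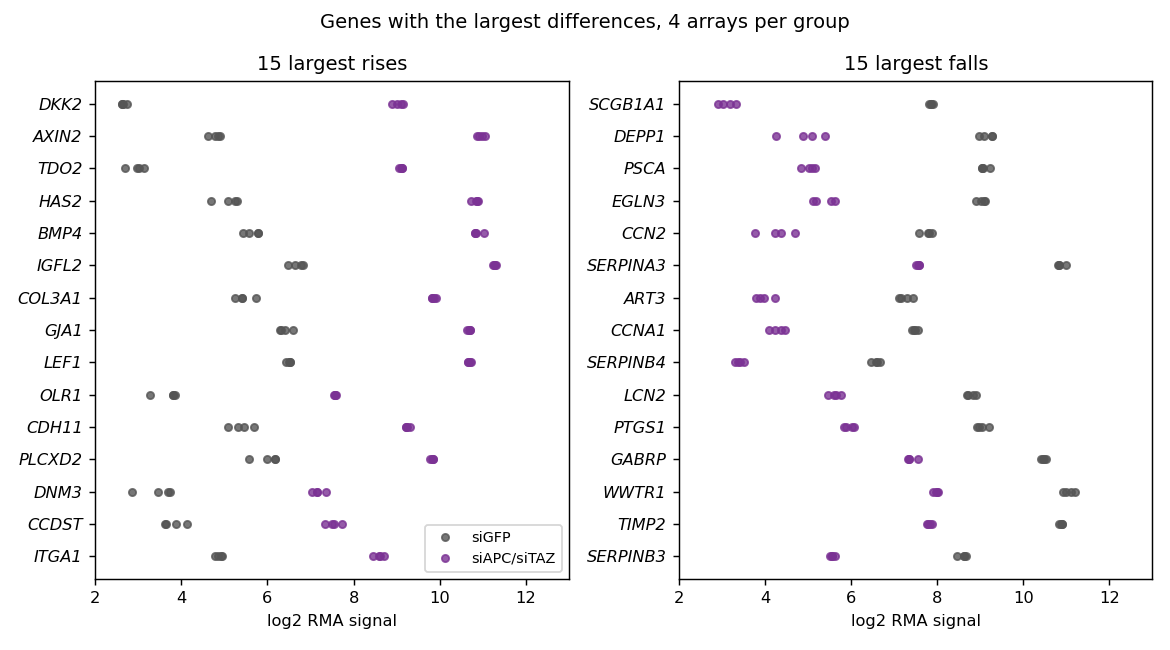
Log2 RMA signal of the 4 siGFP arrays (grey) and the 4 siAPC/siTAZ arrays (purple) for the 15 largest rises (left) and the 15 largest falls (right). Genes were chosen for large differences without overlap, so the groups lie apart in each, from DKK2 (2.66 to 9.04) to SERPINB3 (8.59 to 5.56).

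Genes of the epithelial identity list were lower almost throughout. Of 16 measured, 15 were lower (93.8%, against 24.3% of all genes), none higher and 1 not called (ELF5, at -0.10), with a median of -0.75. The epithelial transcription factor ELF3 read 8.91 to 9.15 in siGFP and 6.92 to 7.06 in siAPC/siTAZ arrays (4.05-fold lower, adjusted p = 3.99e-16). The apical trafficking protein MAL2 fell by 1.98, the membrane serine protease PRSS8 by 1.71, its inhibitor SPINT1 by 1.57 and the adhesion protein EPCAM by 1.08. The splicing factor ESRP1 fell by 0.65 and E-cadherin (CDH1) by 0.36. In siAPC cells the list had a median of -0.59, and ELF3 stood at 6.79, slightly below its siAPC/siTAZ mean of 7.02 (adjusted p = 0.00257). Relative to the siGFP mean, the list median averaged -0.81 in sibcat and -0.93 in sibcat/siTAZ arrays, so the fall was not particular to siAPC/siTAZ cells.

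Secretory and squamous genes were mostly lower as well. Of 24 luminal and secretory genes, 18 were lower (75%, against 24.3% of all genes), none higher and 6 not called (median -0.66). Next to SCGB1A1, the protease inhibitor WFDC2 fell by 2.92, the adhesion molecules CEACAM6 and CEACAM1 by 2.74 and 2.19, the disulfide isomerase AGR2 by 2.62 and the mucin MUC16 by 2.09. The simple keratins KRT7, KRT18 and KRT8 fell by 1.15, 0.98 and 0.92. These keratins had been higher than control in siAPC cells, where KRT8 stood at 11.50, against 10.95 in siGFP and 10.03 in siAPC/siTAZ. The steroid receptor genes ESR1 (-0.03) and PGR (-0.02) and the luminal factor GATA3 (-0.03) were not called. Of 20 squamous differentiation genes, 14 were lower (70%) and 1, KRT10, was higher (0.21), with a median of -1.15. In this list 11 were at least 2-fold lower, as were 2.81% of all genes. The list median averaged -1.12 in siAPC/siTAZ, -0.48 in siAPC, -1.20 in sibcat and -1.28 in sibcat/siTAZ arrays, relative to the siGFP mean. For the luminal and secretory list these averages were -0.67, -0.33, -0.33 and -0.73. Neither fall was particular to siAPC/siTAZ cells. Beside LCN2 and the SERPINB pair, the keratin KRT13 fell by 2.18, the calprotectin genes S100A8 and S100A9 by 1.88 and 1.79, the cross-linking enzyme TGM1 by 1.49 and the cornified envelope protein IVL by 1.23.

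Junction genes went both ways. In all, 14 of 24 were lower (58.3%, against 24.3% of all genes), 5 higher (20.8%, against 23%) and 5 not called (median -0.36). The tight junction genes CLDN8, OCLN, CLDN4, CLDN7 and CLDN1 fell by 2.52, 2.02, 1.14, 1.09 and 0.89, and the cytolinker PPL by 1.29. The connexins GJA1 and GJB2 rose, by 4.29 and 1.62, whereas the connexin GJB5 fell by 0.47. Higher too were the desmosomal cadherins DSC2, DSG3 and DSC3, by 1.02, 0.75 and 0.18. CLDN8 read 8.74 to 8.99 in siGFP and 6.24 to 6.50 in siAPC/siTAZ arrays. In siAPC cells it stood lower still, at 3.86, and siAPC/siTAZ cells were 2.50 ± 0.13 above that (adjusted p = 3.13e-12). Of 10 basal and myoepithelial markers, 7 were lower (70%) and 3 higher (30%). The keratin KRT14 fell by 1.14 and KRT15 by 0.43, the oxytocin receptor OXTR by 0.73, while KRT5 rose by 0.41 and smooth muscle actin (ACTA2) by 2.47.

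Mesenchymal genes and EMT factors were higher on balance, with 12 of 17 higher (70.6%, against 23% of all genes), 3 lower and 2 not called, and a median of 0.43. Of the transcription factors, TWIST1 rose by 1.39, TCF4 by 1.25, ZEB1 by 1.22, ZEB2 by 0.43 and SNAI2 by 0.31, and SNAI1 (-0.27) was not called. N-cadherin (CDH2) rose by 1.05, the matricellular gene SPARC by 1.62 and vimentin (VIM) by 0.35. S100A4, often used as a mesenchymal marker, fell by 1.16, and AXL and FOXC2 fell by 0.76 and 0.73. The rise in fibroblast marker signal given above, to which COL3A1 and COL1A1 contributed, moved with this list. Its part was not tested.

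Extracellular matrix genes and integrins had 15 of 27 higher (55.6%, against 23% of all genes), 9 lower (33.3%, against 24.3%) and 3 not called (median 0.19). The collagens COL1A1, COL4A1 and COL6A1 rose by 1.66, 1.61 and 1.32 and tenascin C (TNC) by 1.42. COL1A1 read 9.40 to 9.72 in siGFP and 11.13 to 11.26 in siAPC/siTAZ arrays (adjusted p = 1.53e-14), and it stood at 8.54 in siAPC cells. The lysyl oxidase LOXL2 fell by 2.14, the integrin ITGAV by 1.33, thrombospondin 1 (THBS1) by 1.31, and the hemidesmosome genes LAMB3 and ITGB4 by 0.94 and 0.80.

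Among matrix proteases and their inhibitors, 11 of 19 were higher (57.9%, against 23% of all genes) and 7 lower (36.8%, against 24.3%), with a median of 0.33. Proteases ADAM19, ADAMTS1, MMP1, ADAMTS5 and MMP2 rose, by 2.99, 1.79, 1.61, 1.39 and 1.13. The inhibitors TIMP2, TIMP3 and TIMP1 fell by 3.06, 0.99 and 0.89, as did MMP7 by 1.63 and the plasminogen activator PLAT by 1.79. MMP1 read 6.76 to 6.91 in siGFP and 8.40 to 8.53 in siAPC/siTAZ arrays, and it had been lower than control in siAPC cells, at 4.88. ADAMTS1 stood at 6.89 in siAPC/siTAZ, above its siGFP mean of 5.10 and far below its siAPC mean of 10.63.

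Of 18 actin cytoskeleton genes and SRF targets, 5 were higher (27.8%, against 23% of all genes), 3 lower and 10 not called, with a median of 0.02. The rises were ACTA2, TAGLN, TPM4, MYH9 and TPM1, at 2.47, 2.44, 1.28, 0.43 and 0.34. ACTA2 read 7.89 to 8.02 in siGFP and 10.37 to 10.50 in siAPC/siTAZ arrays, and it lay above siAPC by 1.56 ± 0.05 and above sibcat/siTAZ by 1.96 ± 0.05 (adjusted p = 3.41e-15 and 8.71e-17).

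TGF-beta and BMP signalling genes had 14 of 22 higher (63.6%, against 23% of all genes), 3 lower and 5 not called (median 0.31). Ligands BMP4, TGFB3, BMP2 and TGFB2 rose, by 5.23, 1.36, 0.74 and 0.22. The receptors went apart, with TGFBR2 higher by 0.83 and TGFBR1 lower by 1.60. SMAD3, the effector of TGF-beta, read 9.06 to 9.14 in siGFP and 6.98 to 7.20 in siAPC/siTAZ arrays (4.11-fold lower, adjusted p = 1.3e-17). The BMP targets ID3, ID2, SMAD6 and ID1 were higher, by 1.79, 0.93, 0.35 and 0.11. The feedback inhibitors BAMBI, PMEPA1 and SMAD7 rose too, by 1.53, 1.49 and 1.05. ID3 had a mean of 9.06 in siGFP, 8.83 in siAPC, 10.85 in siAPC/siTAZ and 10.33 in sibcat/siTAZ. It was high in both groups with TAZ siRNA, where BMP4 stood at 10.88 and at 5.40. The part of TAZ or BMP4 in the level of ID3 was not tested.

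ERK feedback genes had 10 of 16 higher (62.5%, against 23% of all genes), 3 lower (18.8%, against 24.3%) and 3 not called (median 0.29). The ETS factor ETV1 rose by 1.39, the Sprouty inhibitors SPRY1 and SPRY4 by 0.61 and 0.59 and the ERK phosphatase DUSP6 by 0.55. A second phosphatase, DUSP5, fell by 1.75, and DUSP1 fell by 0.66. EGF family ligands and receptors were mostly lower, with 7 of 11 lower (63.6%), 1 higher and 3 not called (median -0.32). The ligands EREG and HBEGF fell by 1.46 and 0.92, the receptors ERBB3 and ERBB2 by 0.61 and 0.49, and the EGFR inhibitor ERRFI1 by 1.29. NRG1 was the exception, at 0.27, but it was not called with the replicate letter as a block (adjusted p = 0.051) or without any of 6 single arrays (adjusted p up to 0.123). AP-1 and immediate early genes were split, with 5 of 17 higher (29.4%), 6 lower (35.3%) and 6 not called. They were led by IER3 (1.08) and FOSL2 (0.95) upward and by EGR3 (-0.89) and FOS (-0.71) downward.

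Hypoxia and glycolysis genes had the lowest median of the lists, -1.42, with 22 of 23 lower (95.7%, against 24.3% of all genes) and 1 higher. Of these genes 13 were at least 2-fold lower, as were 2.81% of all genes. HIF factors drive these genes when oxygen is scarce. EGLN3 read 8.91, 9.08, 9.01 and 9.12 in siGFP arrays and 5.63, 5.52, 5.11 and 5.19 in siAPC/siTAZ arrays. ALDOC, whose promoter is printed above, read 8.68, 8.69, 8.88 and 8.79 against 6.26, 5.89, 6.01 and 6.13 (6.44-fold lower, adjusted p = 8.7e-16). The peptide hormone ADM fell 4.77-fold, the ankyrin repeat gene ANKRD37 5.14-fold, the angiogenic factor VEGFA 3.37-fold and hexokinase 2 (HK2) by 1.96. The mitophagy receptor BNIP3 fell by 1.61, the pyruvate dehydrogenase kinase PDK1 by 1.5 and the collagen hydroxylase P4HA1 by 1.42. Enzymes of basal glycolysis moved less, with PGK1 at -0.61, ENO1 at -0.59, LDHA at -0.46 and PGAM1 at -0.13, and the glucose transporter SLC2A3 rose by 0.53. GAPDH, itself a member, fell by 0.28 while its 3' minus 5' signal moved as given above.

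The median of the hypoxia list in single arrays, relative to the siGFP mean, was -1.47 to -1.38 in siAPC/siTAZ, -0.19 to -0.15 in siAPC and -0.86 to -0.83 in sibcat/siTAZ. Against siAPC cells, 22 of 23 members were lower (22.8% of all genes were), with a median of -0.84. Against sibcat/siTAZ cells 12 were lower and 3 higher, with a median of -0.17. In siAPC cells 4 of the 23 members were higher than control and 13 lower, as were 4216 and 3692 of all 19752 genes. ADM, above control there, stood at 9.45 in siGFP, 10.76 in siAPC, 7.20 in siAPC/siTAZ and 7.39 in sibcat/siTAZ.

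**Figure D4:**
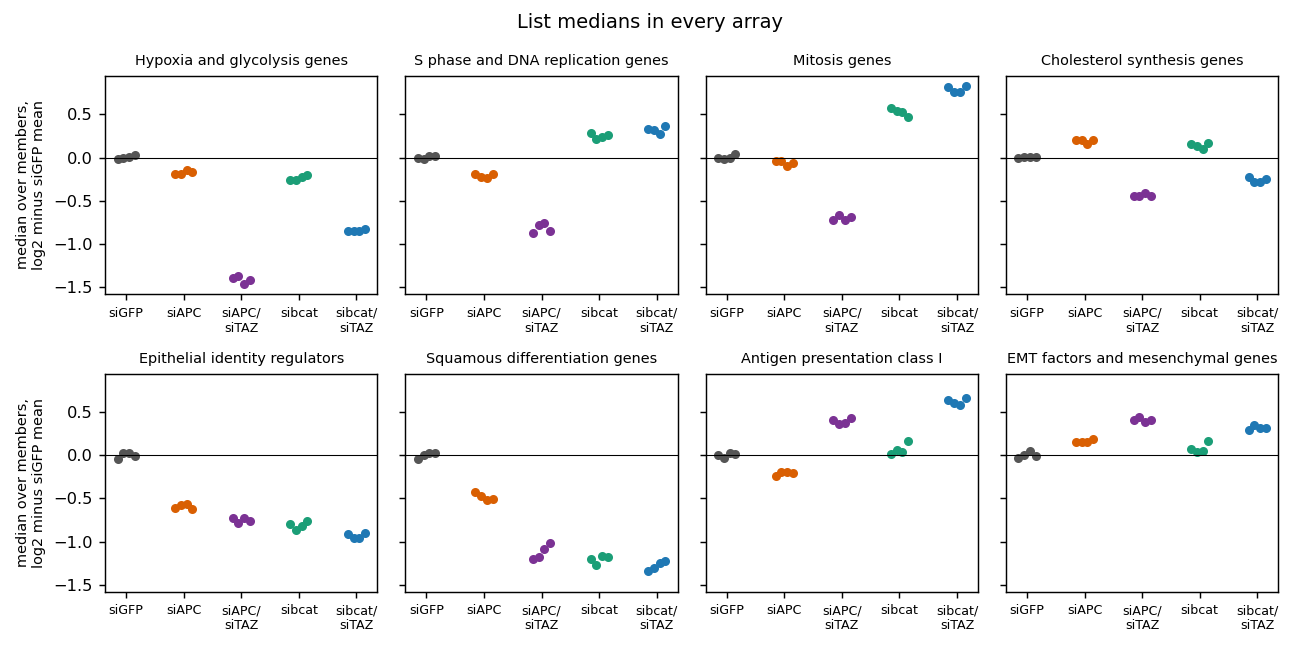
Median over the members of 8 gene lists in every array, as log2 signal minus the siGFP mean of each gene, with the 5 groups along the x axis. The siAPC/siTAZ arrays lie lowest of all groups for hypoxia (-1.47 to -1.38), S phase (-0.88 to -0.76) and mitosis genes (-0.72 to -0.67), whereas the sibcat/siTAZ arrays lie above control for S phase and mitosis.

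Cholesterol synthesis genes had 11 of 16 lower (68.8%, against 24.3% of all genes), 1 higher and 4 not called (median -0.45). The synthase HMGCS1 read 9.24 to 9.31 in siGFP and 7.73 to 8.08 in siAPC/siTAZ arrays, 2.61-fold lower (adjusted p = 9.18e-13). Squalene epoxidase (SQLE) fell by 1.33, the sterol sensor INSIG1 by 1.37 and the sterol carrier STARD4 by 1.06, while LSS rose by 0.16. In siAPC cells the median of the list lay above control, at 0.19. Relative to the siGFP mean, it was -0.45 to -0.41 in siAPC/siTAZ arrays and -0.29 to -0.23 in sibcat/siTAZ arrays, so both groups with TAZ siRNA lay below control. Genes of the ATF4 and unfolded protein responses were mostly a little lower, with 13 of 22 lower (59.1%), 4 higher and 5 not called (median -0.18). Asparagine synthetase (ASNS) fell by 0.93, from a siGFP mean of 8.59 to 7.66, and stood at 10.91 in siAPC cells. The cystine transporter SLC7A11 and the stress sensor SESN2 rose by 1.19 and 1.5.

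Cell cycle genes were lower almost throughout. Of 29 S phase and DNA replication genes, 27 were lower (93.1%, against 24.3% of all genes), 1 higher (ORC6, 0.28) and 1 not called, with a median of -0.80. The replicative helicase subunit MCM6 read 10.20, 10.23, 10.25 and 10.28 in siGFP arrays and 7.89, 7.88, 7.94 and 7.96 in siAPC/siTAZ arrays (5.0-fold lower, adjusted p = 8.51e-19). The other helicase subunits MCM4, MCM5, MCM2, MCM3 and MCM7 fell by 1.01, 1.00, 0.94, 0.54 and 0.39. UHRF1, which carries DNA methylation through replication, fell by 1.89, cyclin E2 (CCNE2) by 1.77 and GINS2 by 1.41. E2F1 (-0.16) was not called.

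Of 30 mitosis genes, 28 were lower (93.3%, against 24.3% of all genes), 1 higher and 1 not called (PLK1, -0.14), with a median of -0.69. The kinetochore gene NUF2 read 8.15 to 8.39 in siGFP and 6.33 to 6.54 in siAPC/siTAZ arrays (3.44-fold lower, adjusted p = 5.81e-15). The cytokinesis scaffold ANLN fell by 1.45, the spindle checkpoint target CDC20 by 1.17, the kinase CDK1 by 1.14 and cyclin B1 (CCNB1) by 1.09. BIRC5 was higher by 0.13, a call lost with only the 8 arrays in the fit and without 3 single arrays (adjusted p up to 0.103). In siAPC cells the mitosis median was -0.07, and in direct comparison 29 of 30 members were lower in siAPC/siTAZ, with a median of -0.63. In sibcat/siTAZ cells the list lay above control, and all 30 members were lower in siAPC/siTAZ, with a median of -1.51, where 24.2% of all genes were. In bulk samples, fewer cycling cells and less RNA per cell cannot be told apart.

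Of 18 CDK inhibitors and p53 targets, 9 were higher (50%, against 23% of all genes), 5 lower (27.8%, against 24.3%) and 4 not called (median 0.20). The death receptor FAS rose by 1.85, SESN2 by 1.5, SESN1 by 1.17, the death receptor TNFRSF10B by 0.99 and the p53 ligase MDM2 by 0.95. FAS read 10.02 to 10.06 in siGFP and 11.86 to 11.93 in siAPC/siTAZ arrays. Of the inhibitors themselves, p57 (CDKN1C) fell by 1.60 and p27 (CDKN1B) by 0.54, and p21 (CDKN1A, 0.10) was not called. Of 17 survival and death genes, 9 were higher (52.9%), 4 lower (23.5%) and 4 not called (median 0.15). The BH3-only genes BCL2L11 (BIM) and PMAIP1 (NOXA) rose 4.85-fold and 3.99-fold and BAX by 0.73, while the survival genes MCL1 and BCL2L2 fell by 0.31 and 0.52. BCL2L11 stood at 10.21 in siAPC and 9.74 in sibcat/siTAZ, both above its siGFP mean of 8.85 and below its siAPC/siTAZ mean of 11.13.

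Interferon response genes were lower on balance, with 14 of 28 lower (50%, against 24.3% of all genes), 5 higher (17.9%, against 23%) and 9 not called (median -0.21). IFIT2 read 8.05 to 8.36 in siGFP and 5.13 to 5.72 in siAPC/siTAZ arrays (7.21-fold lower, adjusted p = 3.27e-15), and ISG20 and IFITM1 fell by 1.27 and 1.21. IFI44 and IFI44L rose by 1.67 and 1.47. The contrast with the other group that received TAZ siRNA was large: 27 of the 28 members were lower in siAPC/siTAZ than in sibcat/siTAZ cells and none higher, with a median of -1.59 (24.2% of all genes were lower and 20.8% higher). Relative to the siGFP mean, the list median averaged 1.52 in sibcat/siTAZ, 0.70 in sibcat, -0.31 in siAPC and -0.21 in siAPC/siTAZ arrays. Most of this gap thus lay in the rise of sibcat/siTAZ cells above control. Of the class I antigen presentation genes, 11 of 14 were higher (78.6%, against 23% of all genes), 2 lower and 1 not called (median 0.40). The peptide transporter TAP1 rose by 0.98, HLA-B by 0.85 and the immunoproteasome subunit PSMB8 by 0.75. All 14 were higher than in siAPC cells (20.7% of all genes were), with a median of 0.69, and siAPC cells lay below control (median -0.21). Against sibcat/siTAZ cells, 6 of the 14 were lower and none higher, with a median of -0.08. TAP1 and HLA-B were not called there (differences 0.05 and -0.01, adjusted p = 0.515 and 0.946).

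NF-kB targets and cytokines had 11 of 27 higher (40.7%, against 23% of all genes), 7 lower (25.9%, against 24.3%) and 9 not called (median 0.03). The neutrophil chemokines stood out within the list. CXCL1 read 8.78 to 9.0 in siGFP and 12.07 to 12.25 in siAPC/siTAZ arrays (9.55-fold, adjusted p = 2.49e-19), CXCL8 rose 6.68-fold, and CXCL6, CXCL2 and CXCL3 rose by 2.31, 1.43 and 1.37. The NF-kB inhibitor TNFAIP3 rose by 2.04 and NFKBIA by 0.53. CCL20, CXCL11, CCL28, IL1B and IL6 fell, by 1.83, 1.54, 1.31, 0.65 and 0.49.

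Mammary stem and progenitor markers had 5 of 20 higher (25%, against 23% of all genes), 8 lower (40%, against 24.3%) and 7 not called (median -0.12). Their largest change was the Notch target HEY1, which rose by 2.50 ± 0.05, from 6.46 to 8.96, and stood at 6.48 in siAPC and 8.33 in sibcat/siTAZ cells. Its relative HES1 (0.06) was not called, the Notch ligand JAG1 rose by 0.63 and the progenitor enzyme ALDH1A3 fell by 0.84. Ribosome biogenesis and MYC targets had 10 of 19 lower (52.6%), 4 higher (21.1%) and 5 not called (median -0.18), with ODC1 at -0.67 and NOLC1 at 0.89. Oxidative phosphorylation genes had 9 of 24 lower (37.5%), 6 higher (25%) and 9 not called (median -0.05), and no member changed by more than 0.30. Only 4 were lower without replicate D of siAPC/siTAZ, replicate C of siGFP or replicate D of siGFP.

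**Figure D5:**
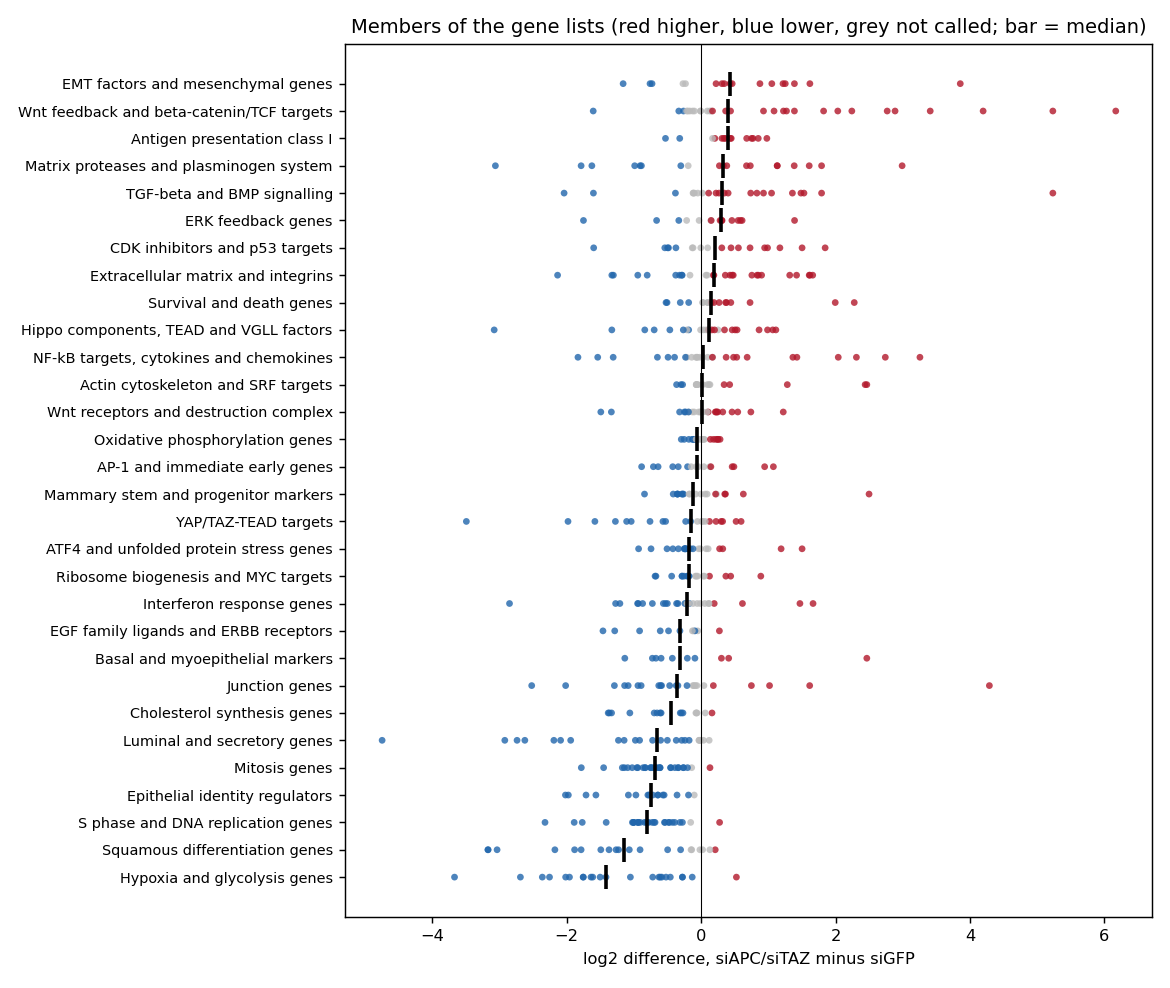
Difference in log2 signal between siAPC/siTAZ and siGFP for every measured member of the gene lists, 1 row per list, with called members in red (higher) or blue (lower), others in grey and the list median as a black bar. Lists run from EMT factors (median 0.43) at the top to hypoxia and glycolysis genes (median -1.42) at the bottom, and the Wnt target list has the widest upper tail, to AXIN2 at 6.17.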

How the data were processed

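The deposited log2 signals were made by the authors with RMA, a method that corrects background, equalizes the arrays' distributions and summarises probe sets. RMA is named in the submitters' processing notes, and the log2 scale follows from the values. Its version and the scan dates are not in the sources used here. There were 54675 probe sets and 20 arrays. Of these probe sets, 41097 carried 1 gene symbol, 1801 several and 11777 none, and 41091 matched a current RefSeq name. These counts include 62 control probe sets, which were then left out. Each symbol was represented by its probe set of highest mean signal across the 20 arrays, which gave 19752 genes (10521 with several probe sets), with no filter on low values. Probe sets without a single symbol (13522) were tested apart, and 25.7% were called. Probe sets of near-identical family members may read each other.

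limma 3.58.1 in R 4.3.3 fitted group means to all 20 arrays (15 residual degrees of freedom), with empirical Bayes moderation, two-sided, and Benjamini-Hochberg adjustment over the 19752 genes of each comparison. The script was tested on simulated data. Named genes were the siRNA targets, CTNNB1, the reporters, the 15 largest rises and falls among called genes without overlap, and, in each list, at most 6 genes of lowest adjusted p plus any called against the list's majority. Other members and DKK1, YAP1 and HEY1 were named for their roles or values. The 34 lists held 710 entries, 652 measured. Members and lists were chosen with earlier results of these data known. Alternatives were the probe set rule, the arrays fitted, a replicate block, 2 filters, trended moderation, 2 scalings and leaving out each array.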

Additional observations from a re-analysis of the deposited data

Results flagged for a closer look

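Of 70 groups of 4 arrays tested, 9 had 1 array whose gap to the nearest other exceeded Dixon's 95% critical share of the range; chance flags about 1 in 20. ANKRD1 was 2.80 in siAPC/siTAZ replicate A, with the others at 3.15 to 3.20. Replicate A also stood apart for TDO2 (9.06, others 9.11 to 9.12), BMP4 (11.02, others 10.82 to 10.84) and CDH11 (9.30, others 9.22 to 9.23). OLR1 was 3.27 in siGFP replicate B, with the others at 3.80 to 3.85. Replicate C of siGFP was high for PSCA (9.22, others 9.05 to 9.07) and for SERPINA3 (10.99, others 10.80 to 10.83). SERPINA3 was also low in siAPC/siTAZ replicate D (7.51, others 7.56 to 7.57). GABRP was 7.55 in siAPC/siTAZ replicate C, with the others at 7.31 to 7.35. For every gene here except ANKRD1 these gaps are small beside the difference between the groups.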

How the results depend on the processing

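The number of genes called depended mainly on the filter. Keeping genes at or above the 75th percentile of array values left 3037 lower, 271 at least 2-fold higher and 340 at least 2-fold lower, with 8 Wnt targets higher and a Wnt median of 0.65 (0.68 with the filter at the array median); these settings test fewer genes. The Wnt list had 5 members lower with the mean of all probe sets and 5 with only the 8 arrays fitted, and the TEAD median was -0.093 with the mean of all probe sets; the cause was not tested. Directions turned with the mean of all probe sets for CSNK1D (-0.13, adjusted p = 0.0377), COX7B (-0.10, adjusted p = 0.0201) and WDR12 (-0.008, adjusted p = 0.909). Leaving out single arrays gave 4329 to 4419 genes higher, 4485 to 4659 lower, 541 to 557 at least 2-fold higher and 546 to 566 lower, Wnt counts of 17 to 18 higher and 3 lower with medians of 0.38 to 0.42, and TEAD counts of 5 to 6 higher and 11 lower with medians of -0.19 to -0.13. Over all lists, leaving out single arrays moved 20 counts or medians. The medians concerned ranged from -0.018 to 0.055 for Wnt receptors, 0.262 to 0.298 for ERK feedback genes, 0.375 to 0.465 for EMT factors and 0.178 to 0.236 for CDK inhibitors and p53 targets. The counts ranged from 4 to 8 lower oxidative phosphorylation genes (9 with all arrays), and from 0 to 1 higher EGF family genes, higher mitosis genes and lower fibroblast markers. Other alternatives moved further list values, 92 in all with these. The same letter did not pair arrays (residual correlations of -0.05 to 0.10 between the groups), and the replicate block gave 4559 genes higher and 4855 lower, 553 and 556 of them at least 2-fold, with Wnt counts of 17 and 3 and TEAD counts of 6 and 11. Of the settings of named genes, 4128 kept their status as called or not called, 44 lost the call and 3 turned direction. A turn was counted only for genes called in the main fit or the alternative. The calls lost were those of ATP5PO, BCL2A1, BIRC5, CCDC80, DCN, FOXF2, FZD3, KLF6, NFKB2, NOTCH1, NRG1, OAS3 and STK3. Among called genes 46.6% to 51.0% were higher in every setting tried, and no list median changed sign when arrays were centred or quantile normalized. Signals near the array medians or below them limit folds most.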

Other observations

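Some genes set the siAPC/siTAZ arrays apart from all 16 other arrays of the study, by at least 1 log2 unit between the nearest arrays: 56 lower and 63 higher of 19752. They were singled out after their values were seen. Among the lower ones, the chromatin protein DEK read 8.93 to 9.03 in siAPC/siTAZ arrays and 11.53 to 11.99 in all others, and the proteoglycan SRGN 4.26 to 4.69 against 6.58 to 11.10. The E2F family repressor E2F8 read 3.60 to 3.93 against 5.69 to 6.53, and the chaperone CANX 10.98 to 11.02, at least 1.06 below all others. TIMP2, NUF2, MCM6, UHRF1 and INSIG1 were in this set as well. Among the higher ones, the matricellular gene CCN4, also named WISP1, had a mean of 8.56 against 6.46 in siAPC and 3.23 in sibcat/siTAZ cells. The IGF binding protein IGFBP5 stood at 8.21 against 6.16 and 6.09, the ganglioside synthase ST3GAL5 at 10.30 against 8.55 and 7.28, and the Hedgehog receptor PTCH1 at 9.43 against 8.05 and 6.88. DKK2, TDO2, COL3A1, ACTA2, LEF1, APCDD1 and TNFRSF19 belonged to this set too.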
